A study of Homo sapiens with 12 samples.

Results

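The proteasome assembly chaperones are proteins that help build the proteasome and are not part of the finished protease. The 9 genes described here are a list of names out of 58676 genes in the deposited table. The names were taken for what is known of their proteins, with earlier results of these data known. They are POMP, PSMG1, PSMG2, PSMG3 and PSMG4, which act on the 20S core particle, and PSMD5, PSMD9, PSMD10 and PAAF1, which act on the base of the 19S regulatory particle. RNA was sequenced from A549, an established human lung carcinoma line. Cells of a control line and of the NFE2L1 knockout lines KO1 and KO2 received DMSO (vehicle) or 200 nM bortezomib for 4 h. The 6 groups were therefore control vehicle, control bortezomib, KO1 vehicle, KO1 bortezomib, KO2 vehicle and KO2 bortezomib, with 2 libraries in each. The labels give 1 control line and do not say how the knockouts were made or whether each line is a clone. They also do not say whether the 2 libraries of a group came from separate cultures, so p-values measure only the spread between libraries, which may be technical.

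The 26S proteasome degrades ubiquitin-tagged proteins. Its barrel-shaped core is built from rings of alpha and beta subunits. PSMG1 and PSMG2 form a dimer that guides the alpha ring, PSMG3 and PSMG4 form another dimer that acts on the same ring, and POMP brings in the beta subunits and is then degraded by the core it completes. PSMD5, PSMD9, PSMD10 (also called gankyrin) and PAAF1 bind ATPase subunits of the base while the base is put together. Bortezomib blocks a catalytic site of the core. NFE2L1 encodes a transcription factor that is itself a proteasome substrate and that raises transcription of proteasome genes when the protease is inhibited, through antioxidant response elements (AREs). The comparisons ask how the messages of the assembly chaperones differ with the inhibitor, with the loss of NFE2L1 and with both.

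Promoter letters are shown for the members that carry an ARE core, the element through which NFE2L1 is known to act, and for POMP, the most abundant member. They were read from RefSeq promoters on GRCh38.p14, which run from 250 bases before the start of the gene to 50 bases after it, and 8 of the 9 members had an entry. PSMG3 had none. Capitals mark the match to TGACNNNGC on either strand, sought in the 250 upstream bases only, each with 10 flanking bases. All lines read 5′ to 3′ along the strand named.
PSMD5, chr9:120843038-120843066, minus strand: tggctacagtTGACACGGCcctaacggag
PSMD9 nearer match, chr12:121888678-121888706, plus strand: cggcttccggTGACCCAGCtccgccctaa
PSMD9 farther match, chr12:121888631-121888659, plus strand: cgctactcctGCCGGGTCAccacaggcgc
PSMG2, chr18:12658689-12658717, plus strand: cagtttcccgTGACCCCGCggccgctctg
PSMG1, chr21:39183616-39183644, minus strand: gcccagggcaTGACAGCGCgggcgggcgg
POMP upstream stretch, chr13:28658880-28659103, plus strand: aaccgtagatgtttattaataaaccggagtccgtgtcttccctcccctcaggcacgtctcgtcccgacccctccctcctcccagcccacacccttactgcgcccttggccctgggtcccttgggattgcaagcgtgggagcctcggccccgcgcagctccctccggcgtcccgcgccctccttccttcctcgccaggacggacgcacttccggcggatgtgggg
Counted from the start site, with negative numbers upstream, the match begins at -134 in PSMD5, -39 at a start of PSMG2 and -183 in PSMG1. In PSMD9 the nearer match begins at -102 and the farther one, on the opposite strand, at -149. The windows of PSMG2 and PSMG1 fall in annotated exons of those genes, and that of PSMD5 falls in an exon of the neighbouring pseudogene CUTALP. The ARE core was thus found in 4 of 8 members with a promoter, in 13 of 38 proteasome subunit and bound-factor genes (34.2%) and in 10.9% of all 35116 promoters. Here and below, members and list genes are counted as genes, and the background as promoters, so the shares are not of like units. PSMG2 had a further promoter, at another start, without a match. A heat shock element core, GAANNTTC, was in 0 of the 8 members, in 1 of the 38 other proteasome genes and in 5.78% of all promoters. The CCAAT box was in 3 members (PAAF1, PSMG1 and PSMD10), in 18 of the 38 (47.4%) and in 32.0% of all. The POMP stretch, 224 bases that end just before the annotated gene, held none of these motifs. A match is a run of letters, and no binding was measured.

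The libraries held 13211608 to 23819258 reads assigned to genes. The 6 libraries with R2 in their title differed from the other 6, which carry R1 or, in the control line, no suffix. Mitochondrial genes took 12.3% to 19.3% of their reads, against 5.44% to 6.80%. This difference was shared between groups: the R2 library minus its partner correlated across genes between every pair of groups, with r from 0.70 to 0.89. Each test was therefore run without and with a replicate block, a term in the model that removes the difference between R2 and the other libraries. NFE2L1 RNA checked the labels: in vehicle it stood at 72.7 and 151 FPKM in the control line, at 8.45 and 14.8 in KO1 and at 18.6 and 33.6 in KO2. With bortezomib it was higher in all 6 library pairs. It then stood at 109 and 189 FPKM in the control line, 27.0 and 35.8 in KO1 and 36.7 and 50.8 in KO2. FPKM is fragments per kilobase of gene, scaled to the depth of the library. All 5 epithelial markers were at 1 FPKM or more in every library, and the sums of endothelial and alveolar type 2 surfactant markers never exceeded 0.24 FPKM. SFTPA1, a surfactant gene of alveolar type 2 cells, was at 0 in every library. Of 4 fibroblast markers only COL1A1 reached 1 FPKM in every library (1.42 to 23.3), and the 3 leukocyte markers summed to at most 3.63. In RNA from a culture, fewer cells with a message and less message per cell cannot be told apart.

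The members spanned a wide range of levels per gene length. POMP was highest, with a median of 31.4 FPKM over the 12 libraries. PSMD5 (14.9), PSMD10 (13.8), PSMG1 (11.4), PSMG3 (11.3) and PSMG2 (8.62) formed a middle band of median FPKM. PAAF1 (1.32), PSMG4 (0.953) and PSMD9 (0.613) were lowest. POMP exceeded PSMD5 in 12 of 12 libraries and PSMG2 exceeded PAAF1 in 12 of 12, so those steps in the order held in each library. Within the middle band the order was loose: PSMD5 exceeded PSMD10 in 8 libraries, PSMG1 exceeded PSMG3 in 4 and PSMG3 exceeded PSMG2 in 9. Among genes with a mean of at least 1 FPKM, POMP lay at the 90.4 percentile and PAAF1 at the 7.87 percentile. PSMG4 and PSMD9 had means under 1 FPKM and so entered no test below, which leaves 7 of the 9 members tested. Their values rested on 70 to 280 reads for PSMG4 and 55 to 157 for PSMD9, and part of their exon bases (15.0% and 22.7%) is shared with other genes, as is 16.7% of those of PSMG2.

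The R2 libraries were lower for most members. POMP in R2 was 0.352 to 0.643 of its partner, PSMD10 0.272 to 0.530, PSMG2 0.412 to 0.548 and PSMD5 0.403 to 0.566. Over all tested genes the median of this ratio ran from 0.728 in control vehicle to 0.897 in KO2 bortezomib. PSMG3 was closer to level, at 0.654 to 1.13, and PSMG4 at 0.840 to 1.60 and PSMD9 at 0.80 to 1.83 leaned the other way in some groups. For POMP, PSMG1, PSMG2, PSMD5 and PSMD10 this gap between libraries of a group was wider than most gaps between groups, as the plot of FPKM by library shows.

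**Figure D1:**
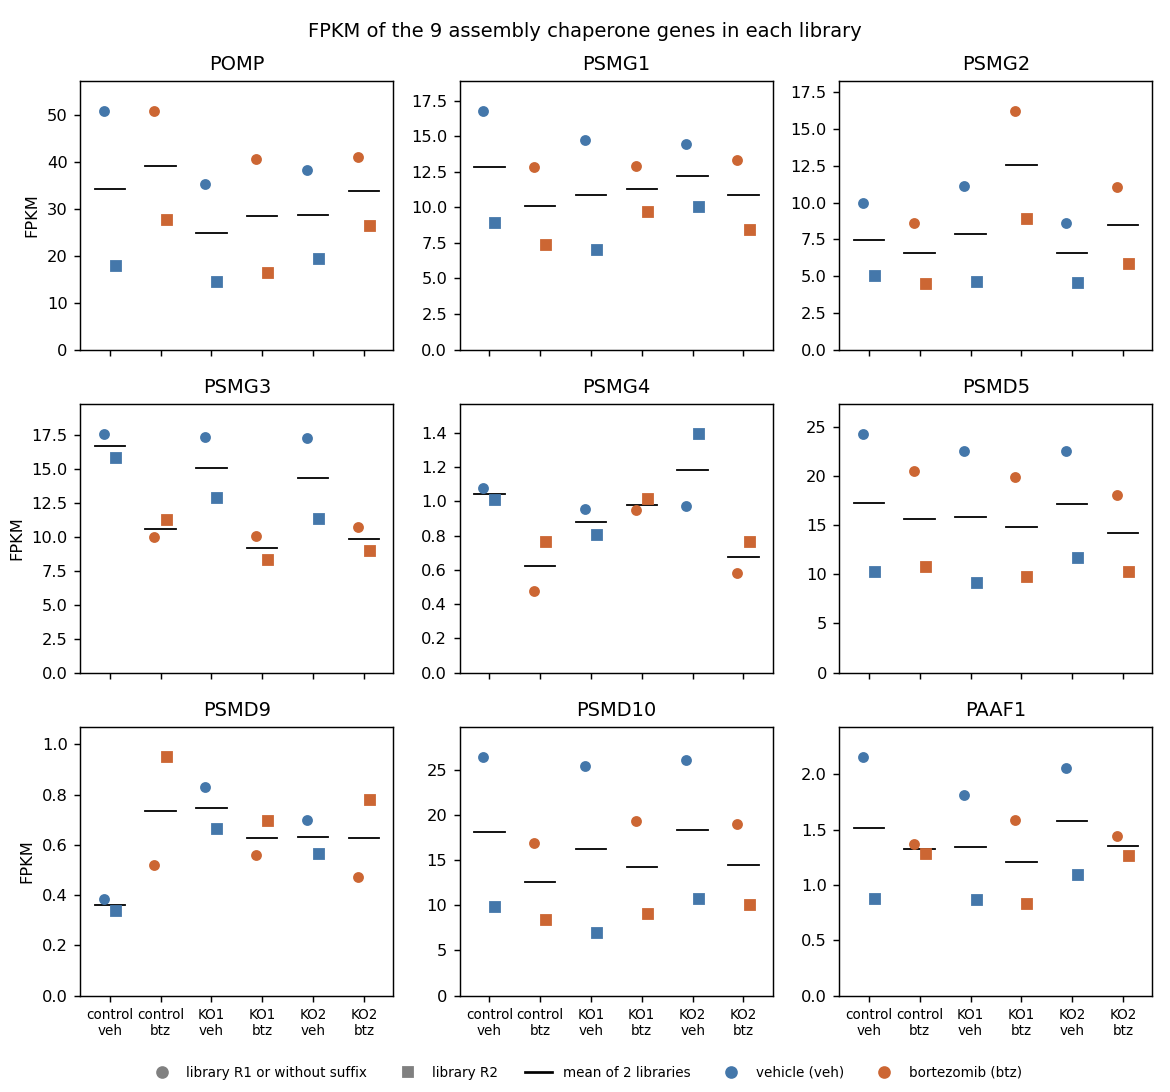
FPKM of each member in each of the 12 libraries, by line and treatment (linear axes from 0; circles, library R1 or without suffix; squares, library R2; bars, mean of 2 libraries). PSMG3 is the member whose vehicle libraries (11.3 to 17.6) all lie above its bortezomib libraries (8.33 to 11.2), while PSMG2 is highest in KO1 with bortezomib (16.2 and 8.90). How many other genes separate by treatment as PSMG3 does was not counted.

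PSMG3 was lower with bortezomib in all 3 lines, by 0.48 to 0.65 on the log2(FPKM + 1) scale. PSMG2 was higher in both knockout lines (0.67 and 0.32) and not in the control line (-0.16). POMP was slightly higher in each line (0.18 to 0.30), and the 3 tested 19S chaperones had log2 fold changes from -0.42 to -0.02. Without the block none of the 7 tested members was called at an adjusted p under 0.05 (limma, Benjamini-Hochberg over 12194 genes), and none had an unadjusted p under 0.05. With the block, 1 member was called in the control line (PSMG3, lower), 2 in KO1 (PSMG3, lower, and PSMG2, higher) and 1 in KO2 (PSMG3, lower). Of all tested genes, those called without the block came to 0.467% for control, 0.238% for KO1 and 0.32% for KO2, and with it to 32.4%, 27.7% and 27%, so the 1 or 2 calls among 7 members are near or below the share over all genes.

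**Figure D2:**
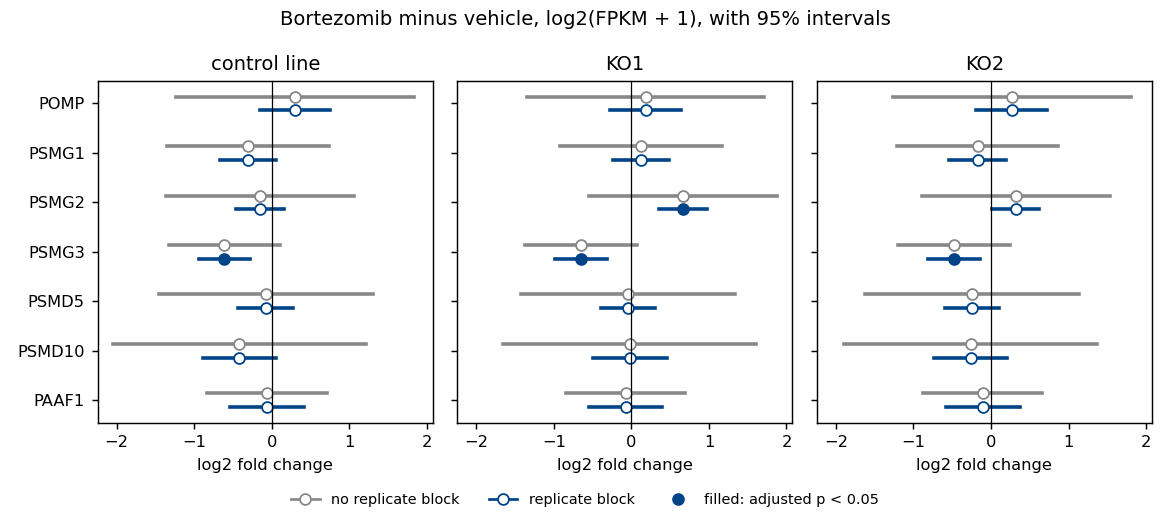
Bortezomib minus vehicle for the 7 tested members in each line, as log2 fold change of FPKM + 1 with 95% intervals from limma (grey, no replicate block; blue, replicate block by title suffix; filled, adjusted p under 0.05). The estimates are the same in both fits and the intervals differ: PSMG3 is called in all 3 lines and PSMG2 in KO1, with the block only.

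PSMG3, a subunit of the PSMG3-PSMG4 dimer, was the only tested member below its vehicle level in all 6 library pairs. In the control line it measured 17.6 and 15.9 FPKM in vehicle against 9.97 and 11.2 in bortezomib, in KO1 17.4 and 12.9 against 10.1 and 8.33, and in KO2 17.3 and 11.3 against 10.8 and 8.94. Vehicle and bortezomib libraries did not overlap within any line, and the share of all tested genes with such a separation was not counted. The control line mean was 16.7 ± 1.24 FPKM in vehicle against 10.6 ± 0.879 in bortezomib (SD, n = 2 each). The means were 15.1 ± 3.17 against 9.20 ± 1.24 in KO1 and 14.3 ± 4.24 against 9.85 ± 1.29 in KO2. The ratio of bortezomib to vehicle within a pair of like suffix was below 1 in 6 of 6 pairs, from 0.567 to 0.788; of all tested genes, 23.8% were lower in all 6 pairs. The log2 fold changes for control, KO1 and KO2 were -0.61, -0.65 and -0.48 (SE 0.32, adjusted p 0.501, 0.580 and 0.768 in limma). With the block the SE was 0.15 and the adjusted p 0.0129, 0.0116 and 0.0400. In the blocked fit the call in KO2 was lost in 6 of 12 fits that each left out 1 library (either KO1 bortezomib library or any KO2 library; adjusted p up to 0.307), and that in KO1 without either KO1 bortezomib library (up to 0.116). That in the control line was lost without the unnumbered vehicle or bortezomib library (up to 0.145). A share of 3.06% of the exon bases of PSMG3 is also annotated to the antisense gene PSMG3-AS1, which was at 0.226 to 1.5 FPKM.

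PSMG4, the partner of PSMG3 in the dimer, was among the lowest members, on 70 to 280 reads per library. It measured 1.08 and 1.01 FPKM in control vehicle, 0.478 and 0.765 in control bortezomib, 0.954 and 0.801 in KO1 vehicle, 0.952 and 1.01 in KO1 bortezomib, 0.971 and 1.4 in KO2 vehicle, and 0.583 and 0.765 in KO2 bortezomib. It was lower with bortezomib in both pairs of the control line (ratios 0.444 and 0.756) and of KO2 (0.601 and 0.548), whereas the KO1 pairs gave 0.997 and 1.26. When the filter on low values was dropped and the block kept, its adjusted p was 0.296 in the control line and 0.285 in KO2 (limma), so it was not called. Of its exon bases 15.0% are shared with genes on the opposite strand, chiefly SLC22A23, and whether counting used strand is not given in the sources used here.

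PSMG2, which pairs with PSMG1, was the tested member with the highest interaction of knockout and bortezomib in both knockout lines, given further on. In the control line it measured 9.97 and 4.99 FPKM in vehicle and 8.64 and 4.49 in bortezomib. In KO1 the values were 11.1 and 4.59 in vehicle and 16.2 and 8.90 in bortezomib, and in KO2 8.60 and 4.53 against 11.1 and 5.84. Within pairs of like suffix it was lower in both control pairs (ratios 0.867 and 0.901) and higher in all 4 knockout pairs (1.46 and 1.94 in KO1, 1.29 and 1.29 in KO2). That order, noted after the values were seen, occurred in 1.16% of tested genes. The log2 fold change in KO1 was 0.67 (SE 0.54, adjusted p 0.827 in limma), and with the block it was called (SE 0.14, adjusted p 0.00752). In the control line it was -0.16 and in KO2 0.32, and neither was called with the block (adjusted p 0.407 and 0.114). The KO1 call of the blocked fit was lost without the KO1 vehicle R2 library or either KO1 bortezomib library (adjusted p up to 0.0796).

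The exons of PSMG2 overlap those of CEP76 (13.9% of its exon bases) and SPIRE1 (2.74%), which lie on the opposite strand. CEP76 gave bortezomib to vehicle ratios of 1.08 and 1.58 in the control line, 1.27 and 1.48 in KO1 and 1.04 and 1.15 in KO2. SPIRE1 gave 2.08 and 2.56, 1.94 and 2.76, and 2.03 and 2.63. Both neighbours were thus higher with bortezomib in the control pairs too, where PSMG2 was lower. Their part in the PSMG2 counts was not tested.

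PSMG1 is the partner of PSMG2 in the alpha-ring dimer. Its values were 16.8 and 8.93 FPKM in control vehicle and 12.8 and 7.33 in control bortezomib, 14.7 and 7.0 against 12.9 and 9.69 in KO1, and 14.4 and 10.0 against 13.3 and 8.39 in KO2. It was lower with bortezomib in 5 of 6 pairs, with KO1 R2 the exception at a ratio of 1.38, a pair in which PSMG2 was higher too. Its log2 fold changes of -0.31, 0.12 and -0.17 (SE 0.47) were not called in any line, with the block or without (adjusted p 0.172, 0.608 and 0.464 in limma with it).

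POMP, which closes the core, was the only tested member above its vehicle level in all 6 pairs, with ratios from 1.0 to 1.54; of all tested genes, 24.8% were higher in all 6. It measured 50.7 and 17.9 FPKM in control vehicle against 50.8 and 27.5 in control bortezomib, 35.3 and 14.3 against 40.5 and 16.3 in KO1, and 38.3 and 19.2 against 41.1 and 26.4 in KO2. In the control line the unnumbered pair was level and the R2 pair carried the difference. The log2 fold changes were 0.30, 0.18 and 0.27 (SE 0.69) and were not called; with the block the SE was 0.20 and the adjusted p 0.283, 0.533 and 0.353 in limma. The 95% interval in the control line with the block ran from -0.16 to 0.76, which includes both no difference and one as large as the median subunit gene below.

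The 3 tested chaperones of the 19S base were not called in any line. PSMD10 measured 26.4 and 9.85 FPKM in control vehicle and 16.9 and 8.31 in control bortezomib, with pair ratios of 0.639 and 0.844. Its pairs gave 0.761 and 1.30 in KO1 and 0.727 and 0.937 in KO2, so 5 of 6 were below 1. Its log2 fold changes were -0.42, -0.02 and -0.26 (limma adjusted p with the block 0.155, 0.958 and 0.383). PSMD5 stayed between 0.80 and 1.06 of vehicle in the 6 pairs, with log2 fold changes of -0.08, -0.04 and -0.24. PAAF1 ranged from 0.635 to 1.47 of vehicle, with log2 fold changes of -0.06, -0.08 and -0.11. PSMD9, untested at 0.335 to 0.950 FPKM, was higher in both control pairs (1.35 and 2.83) and on either side of 1 in both knockout lines (0.676 and 1.05 in KO1, 0.675 and 1.39 in KO2). The ratios of all 9 members are drawn side by side in the plot of library pairs.

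**Figure D3:**
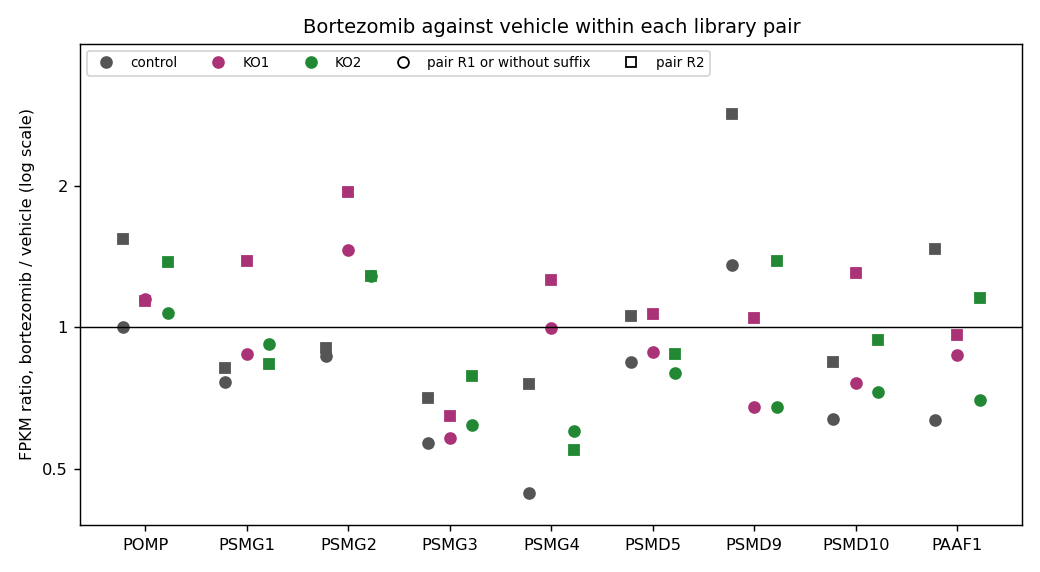
Ratio of bortezomib to vehicle FPKM in each pair of libraries with like suffix, for the 9 members (log axis; 1 means no difference; grey, control; purple, KO1; green, KO2; squares, R2). All 6 PSMG3 points lie between 0.567 and 0.788, and PSMG2 lies below 1 in the control pairs and above 1 in the knockout pairs.

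The list of 43 genes for proteasome subunits and bound factors gives the setting for these values, and 40 of them were tested. Their median log2 fold change with bortezomib for control, KO1 and KO2 was 0.62, 0.45 and 0.42, against -0.16, -0.02 and -0.17 for the 7 members and a median between -0.02 and 0.00 over all genes. Of the 40, 37, 39 and 38 were above 0, as were 1, 3 and 2 of the 7 members. With the block 22, 15 and 15 of the 40 were called, all higher. Without it none was called, and 2, 0 and 0 had a p under 0.05 before adjustment. The extremes in the control line were PSME2, an activator subunit, at -0.22 and PSMC4, a 19S ATPase, at 1.43. In KO1 they were PSMB9, an immunoproteasome subunit, at -0.23 and PSMC2, another ATPase, at 1.01, and in KO2 PSMB9 at -0.22 and the ATPase PSMC6 at 0.92. The 6 ATPases, the subunits to which the 19S chaperones bind, had medians of 0.83, 0.68 and 0.67, with 5 of 6 called in each line with the block. The tested alpha subunits, on which the PSMG dimers act, had medians of 0.47, 0.31 and 0.27, with 2, 1 and 2 of 5 called with the block.

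Member by member, PSMG3 lay below all 40 tested genes of that list in each line. For control, KO1 and KO2 in that order, POMP lay below 28, 34 and 28 of the 40, and PSMG2 below 39, 11 and 25. In the same order PSMG1 lay below 40, 37 and 39, and PSMD5 below 38, 39 and 40. PSMD10 lay below 40, 39 and 40, and PAAF1 below 38, 39 and 39, so a low place was not particular to PSMG3. In the 6 library pairs, 32 of the 40 were higher with bortezomib in every pair and 0 were lower in every pair, while of the 7 tested members 1 was higher (POMP) and 1 lower (PSMG3) throughout. These are counts for 2 lists in the same libraries, and the difference between the lists was not tested.

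**Figure D4:**
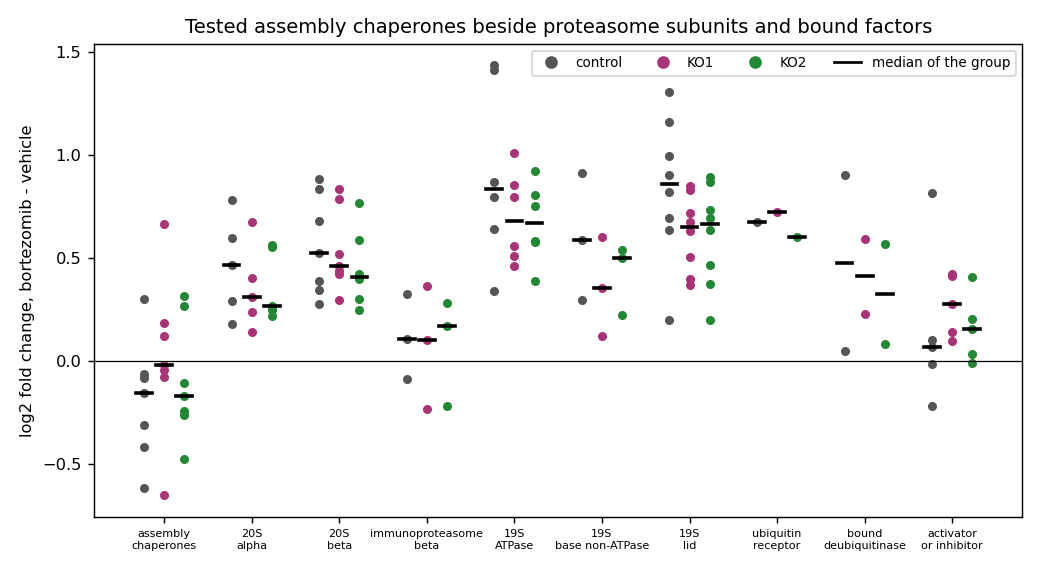
Log2 fold change of bortezomib minus vehicle for the 7 tested assembly chaperones and 40 tested proteasome subunits and bound factors, by group (points, genes; bars, medians; grey, control; purple, KO1; green, KO2). The chaperone medians are -0.16, -0.02 and -0.17, and the medians of the 19S ATPases are 0.83, 0.68 and 0.67.

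Both knockout lines are compared with the same control libraries, so their values are given side by side and are not independent. In what follows, the R2 libraries of knockout and control are set against each other, and the R1 library of a knockout line against the control library without a suffix, which is not a pair of like suffix. No member was called for KO1 or KO2 against control in vehicle, without or with the block, and none had an unadjusted p under 0.05 without it. Over all tested genes 0.213% (KO1) and 0.23% (KO2) were called without the block and 5.95% and 4.91% with it. POMP was lower in both KO1 pairs, at 0.696 and 0.802 of control, and its log2 fold change was -0.40 (SE 0.69; -0.34 with the block, adjusted p 0.460 in limma). In KO2 its ratios were 0.756 and 1.07, with a log2 fold change of -0.15. PSMG3 was at 0.985 and 0.811 of control in KO1 and at 0.985 and 0.715 in KO2. PSMD9 was higher in all 4 pairs, at 2.17 and 1.98 in KO1 and 1.82 and 1.68 in KO2, from control values of 0.383 and 0.335 FPKM. How many other genes were higher in all 4 was not counted. The control values rested on 80 and 55 reads, and with no filter and the block its adjusted p in KO1 was 0.640 in limma. The median of the 7 members was -0.15 in KO1 and -0.03 in KO2, beside -0.31 and -0.05 for the 40 subunit and bound-factor genes. In KO1 8 of the 40 were above 0, and with the block 2 were called, both lower (PSMC4 and PSMD14). In KO2 none was called with the block, where 3 had a p under 0.05 before adjustment. They ran from PSMC4 (-0.89) to the immunoproteasome subunit PSMB8 (0.87) in KO1 and from PSMD14, the lid deubiquitinase (-0.52), to the activator subunit PSME1 (0.26) in KO2.

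With bortezomib present, PSMG2 had the highest log2 fold change of KO1 against control among the tested members. Its ratios of knockout to control were 1.88 and 1.98 in KO1 and 1.28 and 1.30 in KO2, so all 4 were above 1, whereas in vehicle KO1 gave 1.12 and 0.920 and KO2 gave 0.863 and 0.909. The log2 fold change in KO1 was 0.84 (SE 0.54, adjusted p 1 in limma), and with the block it was 0.82 (SE 0.16, adjusted p 0.0174), the only member called. That call was lost without the control bortezomib R2 library or either KO1 bortezomib library (adjusted p up to 0.201). In KO2 the log2 fold change was 0.32 (0.30 with the block, adjusted p 0.338). Ratios above 1 in all 4 were not particular to PSMG2. PSMG1 gave 1.01 and 1.32 in KO1 and 1.04 and 1.15 in KO2, and PSMD10 gave 1.15 and 1.09, and 1.12 and 1.21. PSMG4, untested, gave 1.99 and 1.32 in KO1 and 1.22 and 1.0 in KO2. POMP was below control in all 4 pairs, at 0.797 and 0.592 in KO1 and 0.808 and 0.959 in KO2, with log2 fold changes of -0.52 and -0.18 that were not called (KO1 with the block -0.45, adjusted p 0.286). The shares of all tested genes above control, or below it, in all 4 pairs were not counted. Of all tested genes 0.107% were called for KO1 and 0.0656% for KO2 in the fit without a block, and 7.54% and 4.81% in the blocked fit. The 40 subunit and bound-factor genes had medians of -0.40 in KO1 and -0.26 in KO2, with 11 called in KO1 with the block (PSMB8 higher, 10 lower) and 1 in KO2 (PSME4, a proteasome activator, lower). PSMC4 was lowest (-1.47) and PSMB8 highest (1.13) in KO1, and PSME4 lowest (-0.67) and PSME1 highest (0.36) in KO2.

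Whether the response to bortezomib itself differed between the lines is the interaction of knockout and treatment. No member was called in it for either line, with 0% of all tested genes called without the block in both and 0.041% (KO1) and 0% (KO2) with it. PSMG2 had the highest value among the members in both: its bortezomib response was higher than in the control line by 0.82 in KO1 (SE 0.77, adjusted p 1 in limma) and by 0.47 in KO2. With the block the KO1 difference had an SE of 0.19, a 95% interval of 0.39 to 1.25, an unadjusted p of 0.00202 and an adjusted p of 0.214, and the KO2 difference an unadjusted p of 0.0357 and an adjusted p of 0.635. Without the block the 95% interval of the KO1 difference was -0.90 to 2.54. The PSMG2 differences thus had an unadjusted p under 0.05 in the blocked limma fit only, and they did not pass over all genes. For POMP the response differed by -0.12 and -0.03, close to 0. The 40 subunit and bound-factor genes had interaction medians of -0.10 and -0.12, with none called. They ran from the activator PSME4 (-0.71) to the inhibitor PSMF1 (0.43) in KO1, and from PSMC4 (-0.63) to PSMC1 (0.24) in KO2.

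Patterns over the 12 libraries were compared by Pearson r of log2(FPKM + 1) after the means of the R2 and of the other libraries were removed. The 12 libraries share lines and treatments and differ in depth, so these values, over 12187 genes, are a description with no test. POMP had a median r of 0.75 with the 40 subunit and bound-factor genes, positive with 37 of them. PSMG3 had a median of -0.54, positive with 1. PSMG1 (-0.23, positive with 8) and PSMD10 (-0.21, positive with 10) leaned negative, and PSMD5 stood at -0.07 (positive with 13). PAAF1 had a median of 0.04 (positive with 25) and PSMG2 one of 0.11 (positive with 31). Over all genes compared, the medians of the 7 members ran from 0.00 (PSMG3) to 0.12 (PSMD10). Between members, r ran from -0.52 (PSMG2 and PSMG3) to 0.81 (PSMG1 and PSMD10). The genes most like PSMG2 were CXCL3 (0.954), CXCL1 (0.932) and JUN (0.919), which encode chemokines and a subunit of AP-1. Those most like PSMG3 were SRSF2 (0.967), a splicing factor, KIF15 (0.959) and PEG10. UBL3 (0.957), MMADHC (0.955) and CRIPT (0.951) were most like POMP, and HNRNPA0 (0.975), SRM (0.969) and HNRNPD (0.963) most like PSMD10. For PSMG1 they were EEFSEC, UGP2 and RNU6-8 (0.884 to 0.888), for PSMD5 NUDT5, CENPN and PECR (0.912 to 0.924), and for PAAF1 ATOX1, OTUD6B-AS1 and C14orf2 (0.897 to 0.922).

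The members lie on 9 different chromosomes, and their positions in the deposited table, which match GRCh38, are as follows. POMP (ENSG00000132963) lies at chr13:28659104-28678925 on the plus strand, PSMG1 (ENSG00000183527) at chr21:39174769-39183851 on the minus strand, and PSMG2 (ENSG00000128789) at chr18:12658043-12725740 on the plus strand. PSMG3 (ENSG00000157778) lies at chr7:1567330-1571005 on the minus strand and PSMG4 (ENSG00000180822) at chr6:3231403-3303373 on the plus strand. PSMD5 (ENSG00000095261) lies at chr9:120815496-120842984 on the minus strand, PSMD9 (ENSG00000110801) at chr12:121888731-121918297 on the plus strand, PSMD10 (ENSG00000101843) at chrX:108084207-108091618 on the minus strand and PAAF1 (ENSG00000175575) at chr11:73876699-73931124 on the plus strand. The gene length by which the authors divided, the union of all annotated exons, is 10418 bases for PSMG4 against 4603 for its longest transcript, 8774 against 3051 for PSMD9, 7937 against 4994 for PAAF1 and 3356 against 1686 for PSMG2. For POMP both are 1428. Levels compared between genes carry this difference in length, and ratios of the same gene between libraries do not.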

How the data were processed

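The deposited values are FPKM for each gene in each of 12 libraries. They are the authors' values, with a gene length beside them. Per the submitters' processing notes, CASAVA, STAR 2.5, HTSeq 0.6.1, DESeq2 and the build hg19 were used, with no role given. The deposited coordinates instead match GENCODE 29 (GRCh38) for 95.3% of genes. Deposited FPKM times length gave whole reads for 100% of values (tolerance 0.1 read), from which the depth of each library comes. At that depth the floor of 3 reads lies far under each member's value. Intervals from fits cover the spread between libraries only.

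Groups follow the labels. limma 3.58.1 in R 4.3.3 was fitted to log2(FPKM + 1), a scale that understates the change of low genes, with trend, all 12 libraries and 6 group means. The test covered the 12194 genes (20.8%) whose FPKM averaged 1 or more. Calls are two-sided at an adjusted p under 0.05 (Benjamini-Hochberg). The replicate block has a level for each title suffix (R1, R2 or none). The R2 library minus its partner correlated between groups (median r 0.81 over 15 pairs of groups). The partner has no suffix in control groups and R1 in knockout groups. Over the 6 pairs of knockout groups alone the median r was 0.83. The block is therefore printed where it changes a call, and for some other values. R1 occurs only in knockout groups and no suffix only in control groups, so in this block knockout and control are compared through R2 libraries. All 9 members are named, with NFE2L1, the extremes of the subunit list and the 3 genes most like each member. SEM1, of the list of 43, had no row of that name. Alternatives were another pseudocount (0.1), no filter, no mitochondrial genes, quantile normalization, voom on recovered reads, blocks, and leaving out each library. No filter with the block, and leaving out each library with the block, were added after seeing the data. The members and lists were chosen with earlier results of these data known. Python 3.11.15 with pandas 2.3.3 was used for the rest.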

Additional observations from a re-analysis of the deposited data

Results flagged for a closer look

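For PSMG2, both control pairs were lower with bortezomib and all 4 knockout pairs were higher. That order, noted after the values were seen, occurred in 1.16% of tested genes. The changes within the control line and within KO2 were not called, without the block or with the block by suffix. The difference in response from the control line was 0.82 on the log2(FPKM + 1) scale in KO1 and 0.47 in KO2. Neither passed the interaction test over all genes in limma (adjusted p 0.214 and 0.635 with the block, and 1 in both without it).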

How the results depend on the processing

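Without the block, 0 members were called in any of the 9 comparisons, and that count stayed 0 with another pseudocount, no filter, no mitochondrial genes, quantile normalization, voom, or any 1 library left out. With a replicate block, 1 member was called for bortezomib in the control line and 2 in KO1, under all 5 fits that held it (by suffix, with unnumbered libraries on the level of R1, with quantile normalization, with voom, and without the filter). In KO2 1 was called under 3 of them (by suffix, quantile and voom). For KO1 against control in bortezomib 1 was called under 4 (not without the filter). Leaving out each library with the block gave 0 to 1, 0 to 2, 0 to 1 and 0 to 1 for these comparisons in that order. The block changed no other call among the members.

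No alternative that kept all libraries turned any of the 29 fold changes printed, in 290 values (22 passed the threshold that the main value did not). Part of the 290 could not turn: dropping the filter leaves a gene's fold change as it was. The block on the same values likewise leaves those for bortezomib within a line, and the interactions, unchanged. Leaving out 1 library without the block turned 41 of 348, over 22 fold changes, in fits where a single library stands against the mean of an R2 library and its partner. A library outside the groups compared does not enter a fold change without the block, so many of the 348 values could not turn. The range for bortezomib in the control line, KO1 and KO2 was -0.43 to 1.03, -0.45 to 0.81 and -0.21 to 0.75 for POMP. For PSMG1 it was -0.73 to 0.11, -0.36 to 0.61 and -0.48 to 0.13, and for PSMD5 -0.67 to 0.51, -0.66 to 0.57 and -0.69 to 0.21. For PSMD10 it was -1.09 to 0.25, -0.89 to 0.85 and -0.87 to 0.34, and for PAAF1 -0.44 to 0.31, -0.37 to 0.22 and -0.38 to 0.17. PSMG2 ran from -0.59 to 0.28 in the control line and -0.0916 to 0.73 in KO2. Against control, POMP ran from -1.13 to 0.32 (KO1) and -0.88 to 0.58 (KO2) in vehicle and from -1.15 to 0.11 and -0.61 to 0.25 in bortezomib, and PSMG2 in KO2 from -0.0896 to 0.73 in bortezomib. A group with 1 library left is assumed to vary like the others. PSMG3 with bortezomib, and PSMG2 with bortezomib in KO1, did not turn in these fits. Depth limits PSMG4 and PSMD9, at no more than 280 and 157 reads.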
